A study of Homo sapiens with 9 samples.

Results

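The genes described are 10 ligands and receptors of the platelet-derived growth factor (PDGF) and vascular endothelial growth factor (VEGF) families: the ligands PDGFA, PDGFB, PDGFC, PDGFD, VEGFB and VEGFC, and the receptors PDGFRA, PDGFRB, KDR and FLT1. They were taken by symbol from the 58395 gene identifiers in each count file, and all 10 were found. They were chosen on differences between the groups that were already known, above all that PDGFB was lower with the first siRNA and higher with the second, so their fold changes are given as a description, with standard errors and without p-values. Of the 10, 8 passed the filter on low counts, and PDGFRA and FLT1 did not.

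The cells were MDA-MB-231, an established line of human triple-negative breast cancer, grown in DMEM with serum and harvested for RNA-seq 96 h after reverse transfection of siRNA. The SKP2-1 and SKP2-2 groups each received 1 siRNA against SKP2, an F-box protein that recruits proteins, p27 among them, to a cullin-based ubiquitin ligase for degradation. The NC group received a nontargeting siRNA, and each group holds 3 libraries. Each SKP2 group is 1 siRNA sequence and all libraries come from 1 cell line, so a difference between SKP2-1 and SKP2-2 cannot be told apart from a property of either siRNA. As target, the title and the labels of the samples give SKP2, and the design text gives ZIP7 (SLC39A7).

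Gene counts per library ranged from 39.24 to 49.86 M in SKP2-1, from 39.59 to 46.4 M in SKP2-2 and from 35.48 to 48.6 M in NC. Levels are given as CPM, counts scaled to the library's total after TMM normalization. SKP2 averaged 3.58 CPM in SKP2-1 and 5.96 CPM in SKP2-2, against 62.0 CPM in NC, and it fell by 4.11 (SE 0.08) and 3.38 (SE 0.08) on the log2 scale (edgeR quasi-likelihood test, Benjamini-Hochberg adjusted p = 8.64e-12 and 5.35e-12). SLC39A7 averaged 343 CPM in SKP2-1 and 364 CPM in SKP2-2, against 342 CPM in NC, and did not pass (edgeR adjusted p = 0.936 and 0.0868), although SKP2-2 passed when libraries were scaled by size only (adjusted p = 0.0138). The mesenchymal marker VIM (2823, 2940 and 2733 CPM in SKP2-1, SKP2-2 and NC) and EGFR (678, 813 and 533 CPM) were abundant, while the hormone receptor genes ESR1 and PGR had at most 12 and 17 counts in a library. Of the other markers fixed for this line, CD44 averaged 1170, 970 and 763 CPM and AXL 630, 1311 and 1397 CPM in these groups. ERBB2 averaged 94, 88 and 84 CPM, EPCAM 10.2, 6.9 and 7.9 CPM, and CDH1 8.1, 3.9 and 12.4 CPM. On the third principal component, NC replicate 1 and SKP2-2 replicate 3 lay apart from NC replicate 3 and SKP2-2 replicate 1. No label states that the 3 libraries of a group come from separate cultures, and the p-values therefore rest on a spread between libraries that may be technical.

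PDGF ligands are secreted dimers that bind the receptor tyrosine kinases PDGFRA and PDGFRB and drive growth and migration of mesenchymal cells. PDGFA and PDGFB are cut by proprotein convertases before secretion, whereas PDGFC and PDGFD are secreted with a CUB domain that must be cut off outside the cell. VEGF ligands bind FLT1, KDR and FLT4, which are best known from blood and lymphatic endothelium, and tumour cells commonly secrete both kinds of ligand for stromal and endothelial cells.

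RefSeq promoter sequence (GRCh38.p14, 250 bases before to 50 after an annotated start) was available for 8 of the 10 genes, not for PDGFB and PDGFC. The promoters of KDR, PDGFA and PDGFD are shown because these 3 genes had the largest differences between groups among those with an entry. Each is written 5′ to 3′ on the minus strand, at chr4:55125546-55125845, chr7:520177-520476 and chr11:104164098-104164397. Of the 4 entries for PDGFA, the one that holds the GENCODE 29 start of the gene is shown. Capitals mark the GC box, searched as GGGCGG and its reverse complement CCGCCC.
KDR: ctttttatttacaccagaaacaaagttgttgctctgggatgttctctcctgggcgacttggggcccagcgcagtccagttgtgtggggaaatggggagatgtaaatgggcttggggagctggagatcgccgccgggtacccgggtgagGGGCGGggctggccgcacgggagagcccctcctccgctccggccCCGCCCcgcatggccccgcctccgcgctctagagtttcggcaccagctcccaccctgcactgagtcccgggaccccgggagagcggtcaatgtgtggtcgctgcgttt
PDGFA: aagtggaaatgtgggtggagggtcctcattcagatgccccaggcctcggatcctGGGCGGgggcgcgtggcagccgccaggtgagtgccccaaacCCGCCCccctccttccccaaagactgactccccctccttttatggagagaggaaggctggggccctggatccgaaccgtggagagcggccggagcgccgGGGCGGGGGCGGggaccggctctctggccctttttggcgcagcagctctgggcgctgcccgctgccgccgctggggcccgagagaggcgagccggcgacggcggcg
PDGFD: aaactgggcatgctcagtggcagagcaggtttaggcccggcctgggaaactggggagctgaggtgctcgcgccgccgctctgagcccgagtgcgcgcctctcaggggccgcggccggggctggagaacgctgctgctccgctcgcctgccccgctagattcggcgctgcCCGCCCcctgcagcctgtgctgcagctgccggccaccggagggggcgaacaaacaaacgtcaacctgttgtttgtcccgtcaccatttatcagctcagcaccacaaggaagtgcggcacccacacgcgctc
KDR held 2 GC boxes, PDGFA 4, of which a pair run on without a gap, and PDGFD 1, with GC contents of 65.0%, 71.7% and 67.3%. Over the 35116 promoters in the table, 45.0% held at least 1 GC box and the median GC content was 58.7%. The CCAAT box (CCAAT, reverse complement ATTGG), which 34.6% of all promoters hold, was in none of the 3 windows. Neither was the TATA box (TATAAA, reverse complement TTTATA), which 11.5% hold. The ACGTG form of the hypoxia response element's core (reverse complement CACGT), which 21.4% hold, was in none of them either. The GCGTG form (reverse complement CACGC) was not searched over all promoters. Its letters occur in the PDGFA and PDGFD windows printed above. The letters describe the windows and do not show binding.

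PDGFB, the ligand that recruits pericytes to vessels and binds both PDGF receptors, differed most between the groups. PDGFB (ENSG00000100311, chromosome 22, 39223359 to 39244751, minus strand, GENCODE 29 on GRCh38) had 19, 20 and 23 counts in SKP2-1, 171, 188 and 187 counts in SKP2-2, and 62, 61 and 52 counts in NC, in replicates 1 to 3. This is 0.448, 0.513 and 0.466 CPM in SKP2-1, 4.21, 4.26 and 4.01 CPM in SKP2-2, and 1.74, 1.35 and 1.10 CPM in NC. The 3 groups did not overlap: all SKP2-1 libraries lay below, and all SKP2-2 libraries above, all NC libraries. The log2 fold change was -1.53 (SE 0.20) for SKP2-1 against NC, 2.90 times lower, and 1.59 (SE 0.15) for SKP2-2 against NC, 3.01-fold higher. Between the siRNAs it was 3.13 (SE 0.17), 8.72-fold higher in SKP2-2. Of the 16575 genes tested, 11 (0.0664%), PDGFB included, differed as much between the siRNAs in either direction, while 229 (1.38%) and 243 (1.47%) differed from NC as much as PDGFB did with SKP2-1 and SKP2-2. PDGFB was low in all groups, and within NC its level was highest in replicate 1 and lowest in replicate 3. Without NC replicate 1 the value of SKP2-1 against NC was -1.37, and that of SKP2-2 against NC was 1.75.

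PDGFA, which signals mainly through PDGFRA, was lower in SKP2-1 than in both other groups. PDGFA (ENSG00000197461, chromosome 7, 497258 to 520296, minus strand) had 7.92, 7.38 and 7.80 CPM in SKP2-1, 14.3, 16.5 and 15.6 CPM in SKP2-2, and 15.7, 14.2 and 15.3 CPM in NC. All SKP2-1 libraries lay below all others, and SKP2-2 and NC overlapped. On the log2 scale the difference was -0.97 (SE 0.08) for SKP2-1 against NC, 0.04 (SE 0.07) for SKP2-2 against NC and 1.01 (SE 0.08) for SKP2-2 against SKP2-1. PDGFA and PDGFB thus had their lowest libraries in the same group, and of both genes PDGFB alone lay above NC in SKP2-2. The ratio of PDGFB to PDGFA, in CPM and so only comparable between libraries, was 0.0566, 0.0694 and 0.0597 in SKP2-1, 0.295, 0.258 and 0.257 in SKP2-2, and 0.111, 0.0947 and 0.0720 in NC.

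PDGFD, a ligand of PDGFRB, ran the other way. PDGFD (ENSG00000170962, chromosome 11, 103907186 to 104164379, minus strand) had 12.9, 12.2 and 11.9 CPM in SKP2-1, 5.27, 6.28 and 5.65 CPM in SKP2-2, and 7.33, 8.22 and 8.29 CPM in NC. The groups did not overlap, with SKP2-1 highest and SKP2-2 lowest. The difference in log2 terms was 0.63 (SE 0.09) for SKP2-1 against NC, -0.47 (SE 0.09) for SKP2-2 against NC and -1.11 (SE 0.09) for SKP2-2 against SKP2-1. DDI1 overlaps 193 exonic bases of PDGFD on the opposite strand and had 0 counts in every library, and whether the counting used strand is not given in the sources used here.

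PDGFC, which acts through PDGFRA, was the most abundant of the 10 genes and differed little. PDGFC (ENSG00000145431, chromosome 4, 156760454 to 156971394, minus strand) had 134, 132 and 130 CPM in SKP2-1, 159, 153 and 151 CPM in SKP2-2, and 121, 134 and 134 CPM in NC. SKP2-1 overlapped NC, and all SKP2-2 libraries lay above both. In log2 units the fold change was 0.02 (SE 0.05) for SKP2-1 against NC, 0.25 (SE 0.05) for SKP2-2 against NC and 0.23 (SE 0.05) for SKP2-2 against SKP2-1. NC replicate 1 was the lowest library, and without it the first value was -0.04 and the second 0.19.

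**Figure D1:**
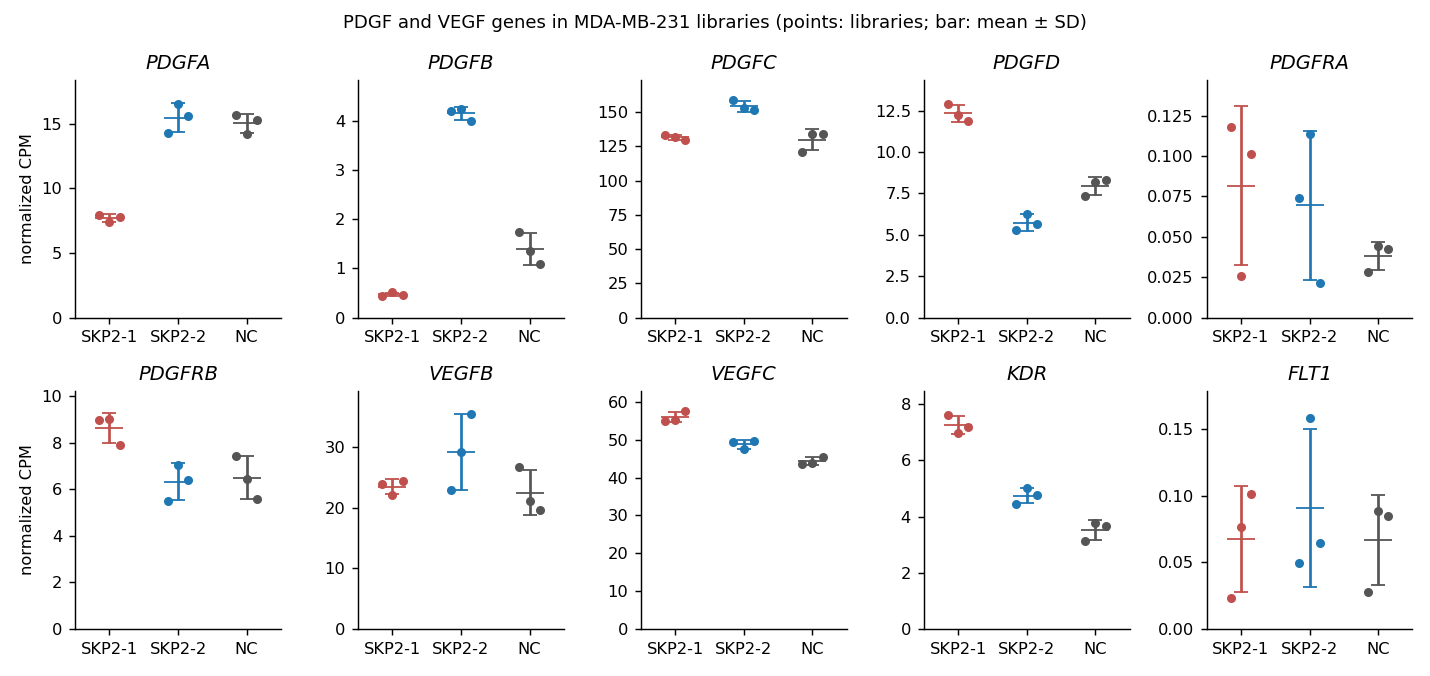
Normalized CPM of the 10 PDGF and VEGF genes in each library, by group on the horizontal axis, with bars for the mean ± SD of 3 libraries and a separate vertical scale for each gene. PDGFB lies at 0.448 to 0.513 CPM in SKP2-1, 4.01 to 4.26 CPM in SKP2-2 and 1.10 to 1.74 CPM in NC, while PDGFRA and FLT1 stay near 0.

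Divided by exon length, the 4 ligand genes can be set beside each other within a library. PDGFC made up 82.5, 83.1 and 82.9% of the summed CPM per kilobase of the 4 PDGF ligands in SKP2-1, 83.1, 80.6 and 81.5% in SKP2-2, and 78.5, 80.8 and 80.2% in NC. PDGFC thus supplied most of the ligand transcripts in every library. PDGFA made up 6.59, 6.28 and 6.71% in SKP2-1, 10.1, 11.7 and 11.3% in SKP2-2, and 13.7, 11.5 and 12.3% in NC. PDGFD made up 10.5, 10.1 and 9.95% in SKP2-1, 3.61, 4.34 and 3.99% in SKP2-2, and 6.22, 6.48 and 6.50% in NC. PDGFD therefore exceeded PDGFA in all SKP2-1 libraries, and PDGFA exceeded PDGFD in all SKP2-2 and NC libraries. PDGFB made up 0.412, 0.481 and 0.442% in SKP2-1, 3.27, 3.34 and 3.21% in SKP2-2, and 1.68, 1.21 and 0.977% in NC.

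**Figure D2:**
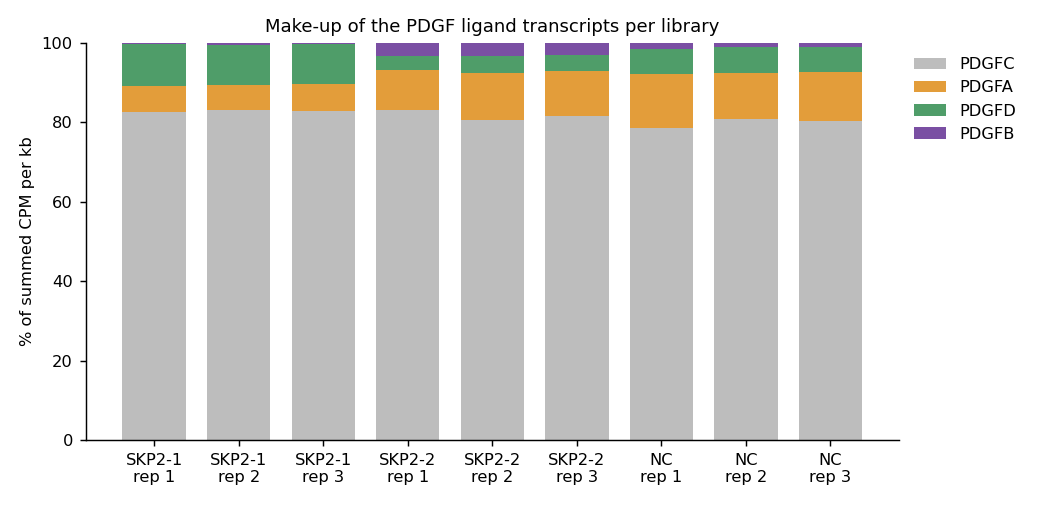
Share of each PDGF ligand gene in the summed CPM per kilobase of the 4 ligands, in percent, for each library. PDGFC takes 78.5 to 83.1% in every library; PDGFD is larger than PDGFA in SKP2-1 and smaller in SKP2-2 and NC.

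The PDGF receptors were low. PDGFRB (ENSG00000113721, chromosome 5, 150113837 to 150155872, minus strand), the receptor of pericytes and fibroblasts, had 9.01, 9.02 and 7.90 CPM in SKP2-1, 5.52, 7.07 and 6.43 CPM in SKP2-2, and 7.45, 6.45 and 5.61 CPM in NC. All SKP2-1 libraries lay above the others, and SKP2-2 and NC overlapped. The log2 fold change was 0.41 (SE 0.12) for SKP2-1 against NC, -0.03 (SE 0.12) for SKP2-2 against NC and -0.44 (SE 0.12) for SKP2-2 against SKP2-1. PDGFRA (ENSG00000134853, chromosome 4, 54229097 to 54298247, plus strand), the receptor that binds PDGFA and PDGFC, had 5, 1 and 5 counts in SKP2-1, 3, 5 and 1 counts in SKP2-2, and 1, 2 and 2 counts in NC. At these counts no fold is given, and a difference in PDGFRA was not detectable at this depth. A gene on the same strand, AC058822.1, shares 1533 exonic bases with PDGFRA and had 0 counts in every library. Reads in several genes were counted for none of them, so reads from the shared bases may be missing for PDGFRA.

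The markers fixed for pericytes and fibroblasts give the background for PDGFRB. All libraries are labelled as 1 cell line. In this bulk RNA, fewer expressing cells and less RNA per cell cannot be told apart. Of 12 such markers, 7 were tested, of which 3 rose and 1 fell with SKP2-1 and 4 rose and 1 fell with SKP2-2. Over all genes 25.0% rose and 20.5% fell with SKP2-1, and 25.2% rose and 24.1% fell with SKP2-2. Without NC replicate 3 or SKP2-1 replicate 3 the 3 became 1. Leaving out 1 library at a time put the 3 at 1 to 4 and the 4 at 3 to 4. The rise of CSPG4 with SKP2-2 did not pass without NC replicate 2 or 3, any 1 of the SKP2-1 libraries, or SKP2-2 replicate 2 or 3. Nor did it pass with no filter on low counts or with a block for replicate number. The rise of RGS5 with SKP2-2 did not pass with DESeq2 or without SKP2-2 replicate 1. DES and DCN had at most 4 and 2 counts in a library, FAP at most 4, THY1 at most 11 and COL3A1 at most 14. All 12 together summed to 281 to 295 CPM in SKP2-1, 216 to 242 CPM in SKP2-2 and 214 to 249 CPM in NC. This sum was highest in the same group as PDGFRB, but most of it was MCAM (226, 176 and 175 CPM in SKP2-1, SKP2-2 and NC). Of the tested markers, MCAM, CSPG4 and COL1A2 averaged highest in SKP2-1, RGS5, ACTA2 and LUM in SKP2-2, and COL1A1 in NC. The part of these markers in the PDGFRB values was not tested.

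VEGFC, a growth factor for lymphatic vessels, was more abundant than VEGFB per kilobase of exon (20.5 and 16.2 CPM per kilobase over the 9 libraries). VEGFA, described with the other pathway genes, lay at 24.4 CPM per kilobase. In CPM the averages were 352 for VEGFA, 49.7 for VEGFC and 25.1 for VEGFB. Their annotated exons cover 14431, 2420 and 1545 bases. The per-kilobase level of VEGFA thus rests on a length that may exceed that of its transcripts. VEGFC (ENSG00000150630, chromosome 4, 176683538 to 176792727, minus strand) had 55.0, 55.3 and 57.5 CPM in SKP2-1, 49.5, 47.5 and 49.6 CPM in SKP2-2, and 43.5, 43.8 and 45.5 CPM in NC. The groups did not overlap, with SKP2-1 highest and NC lowest. On the log2 scale the difference was 0.34 (SE 0.05) for SKP2-1 against NC, 0.14 (SE 0.05) for SKP2-2 against NC and -0.20 (SE 0.05) for SKP2-2 against SKP2-1. The SKP2-2 value was 0.09 without SKP2-2 replicate 1.

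VEGFB, which binds FLT1 and not KDR, did not separate the groups. VEGFB (ENSG00000173511, chromosome 11, 64234538 to 64238793, plus strand) had 23.9, 22.1 and 24.4 CPM in SKP2-1, 22.9, 29.2 and 35.5 CPM in SKP2-2, and 26.7, 21.1 and 19.7 CPM in NC. Its highest SKP2-2 and NC libraries were SKP2-2 replicate 3 and NC replicate 1, the pair that lay apart on the third principal component. The difference in log2 terms was 0.06 (SE 0.17) for SKP2-1 against NC, 0.38 (SE 0.17) for SKP2-2 against NC and 0.32 (SE 0.17) for SKP2-2 against SKP2-1. Without both of those libraries it was 0.19 for SKP2-1 against NC, 0.36 for SKP2-2 against NC and 0.17 for SKP2-2 against SKP2-1.

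KDR, the main signalling receptor for VEGFA in endothelium, was higher than in NC with both siRNAs. KDR (ENSG00000128052, chromosome 4, 55078259 to 55125595, minus strand) had 7.61, 6.97 and 7.17 CPM in SKP2-1, 4.46, 5.01 and 4.78 CPM in SKP2-2, and 3.12, 3.78 and 3.68 CPM in NC. The groups did not overlap, and the counts behind them were 272 to 354 in SKP2-1, 181 to 223 in SKP2-2 and 111 to 174 in NC. In log2 units the fold change was 1.04 (SE 0.10) for SKP2-1 against NC, 2.05-fold, 0.43 (SE 0.10) for SKP2-2 against NC, 1.34-fold, and -0.61 (SE 0.09) for SKP2-2 against SKP2-1. FLT1 (ENSG00000102755, chromosome 13, 28300344 to 28495145, minus strand), a receptor that also exists as a soluble decoy, had 1, 3 and 5 counts in SKP2-1, 2, 7 and 3 counts in SKP2-2, and 1, 4 and 4 counts in NC. A difference in FLT1 was not detectable at this depth.

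Of the markers fixed for endothelial cells, several defining ones were at or near 0. ERG and CLDN5 had 0 counts in every library, CDH5 at most 4, EMCN at most 2, TEK at most 11 and VWF at most 14. Of the 12 markers 6 were tested, of which 3 rose with SKP2-1 and 2 with SKP2-2, and the others did not pass; over all genes 25.0% rose with SKP2-1 and 25.2% with SKP2-2. Among them were ESAM (134, 206 and 140 CPM in SKP2-1, SKP2-2 and NC) and ROBO4 (63.5, 65.3 and 41.9 CPM). The summed level of all 12 was 213 to 222 CPM in SKP2-1, 269 to 303 CPM in SKP2-2 and 174 to 218 CPM in NC. It was highest in SKP2-2, where most of it was ESAM, whereas KDR was highest in SKP2-1. Of the tested markers, TIE1 and PECAM1 averaged highest in SKP2-1 as KDR did, and ESAM, ROBO4, EGFL7 and MMRN2 in SKP2-2. TIE1, a receptor kinase of endothelium, averaged 7.48 CPM in SKP2-1, 5.57 CPM in SKP2-2 and 5.25 CPM in NC. In the same order EGFL7 averaged 2.90, 7.57 and 3.52 CPM and MMRN2 0.179, 0.230 and 0.226 CPM, both lowest in SKP2-1. The part of these markers in the KDR values was not tested. PECAM1, an adhesion molecule of endothelium and blood cells, averaged 9.32 CPM in SKP2-1, 3.61 CPM in SKP2-2 and 4.03 CPM in NC, and rose with SKP2-1 (log2 fold change 1.21, edgeR adjusted p = 4.74e-07) and did not pass with SKP2-2 (-0.16, adjusted p = 0.235).

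**Figure D3:**
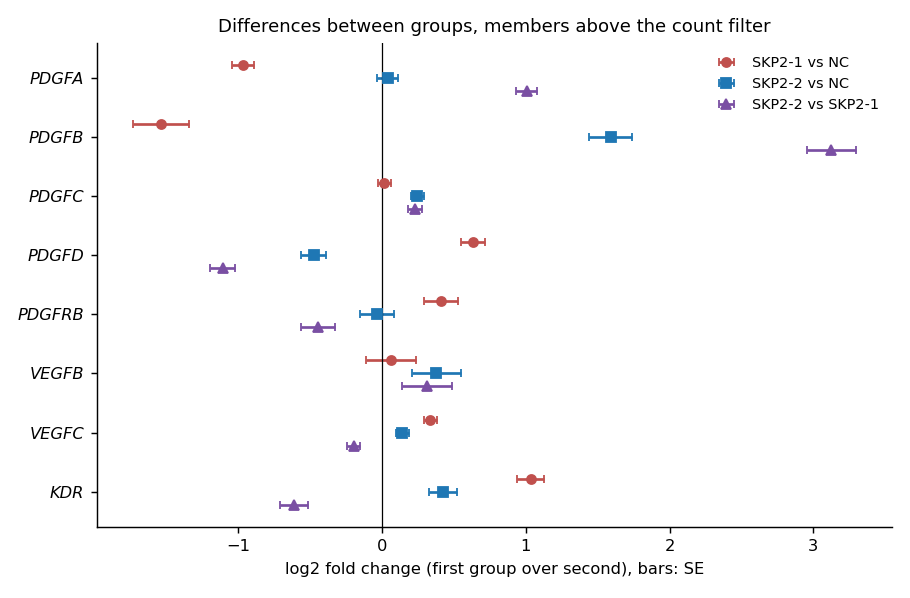
Log2 fold change (horizontal axis) with its SE for the 8 genes above the count filter, for SKP2-1 over NC, SKP2-2 over NC and SKP2-2 over SKP2-1. PDGFB lies at -1.53, 1.59 and 3.13, and PDGFD on the opposite sides of 0, at 0.63, -0.47 and -1.11.

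Counted over the 8 genes that passed the filter, 6 were past the threshold (adjusted p below 0.05) in SKP2-1 against NC, where 45.5% of all genes tested were. The count was 5 in SKP2-2 against NC, where 49.4% of all genes were, and 7 in SKP2-2 against SKP2-1, where 50.5% were. In SKP2-1 against NC 4 were higher and 2 lower (25.0% and 20.5% of all genes), in SKP2-2 against NC 4 higher and 1 lower (25.2% and 24.1%), and in SKP2-2 against SKP2-1 3 higher and 4 lower (25.2% and 25.3%). The groups did not overlap for 6, 5 and 7 of the genes in these comparisons, against 54.8%, 53.6% and 64.0% of all genes. The median log2 fold change was 0.20 over the 8 genes and 0.02 over all genes with SKP2-1, 0.20 and 0.03 with SKP2-2, and 0.02 and 0.03 between the siRNAs. Both siRNAs are set against the same NC libraries. PDGFB was lower with SKP2-1 and higher with SKP2-2, both past the threshold, as were 2.25% of all genes. PDGFB and PDGFD were past it in opposite directions, as were 6.64% of all genes. These comparisons chose the genes, so nothing is read from the counts. VEGFC fell out of the SKP2-2 count with DESeq2 (log2 fold change 0.12), with no filter on low counts (0.15), and without NC replicate 2, SKP2-2 replicate 1, SKP2-2 replicate 3, or NC replicate 1 together with SKP2-2 replicate 3. VEGFB entered it with DESeq2 (0.35) and without NC replicate 1, SKP2-2 replicate 1, or NC replicate 1 together with SKP2-2 replicate 3. PDGFRB fell out of the comparison between the siRNAs without SKP2-2 replicate 1.

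Per kilobase of exon and averaged over the 9 libraries, the order of levels was PDGFC (24.8 CPM per kilobase), VEGFC (20.5), VEGFB (16.2), PDGFA (3.07), PDGFD (2.03), PDGFRB (1.00), KDR (0.789), PDGFB (0.535), PDGFRA (0.00649) and FLT1 (0.00597). All 4 receptors were therefore below every ligand but PDGFB. By group, KDR averaged 1.11 CPM per kilobase in SKP2-1, 0.724 in SKP2-2 and 0.537 in NC, and PDGFRB 1.21, 0.888 and 0.911. PDGFB averaged 0.126 CPM per kilobase in SKP2-1, 1.11 in SKP2-2 and 0.371 in NC, so it was below KDR and PDGFRB in SKP2-1 and NC and above both in SKP2-2. PDGFRA and FLT1, at 1 to 7 counts a library, cannot be ordered.

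The genes most like PDGFB were ranked by Pearson's r of log2(CPM + 0.5) over the 9 libraries, among 11308 other protein-coding genes of at least 2 CPM on average. They were GUCD1 (r = 0.9916), ARID3B (0.9904), SCARA3 (0.9904), UBL4A (0.9904) and UBOX5 (0.9903). With 3 groups, a gene that is lowest in SKP2-1 and highest in SKP2-2 reaches a high r whatever the size of its differences, and 532 genes (4.71%) had an r of at least 0.9. The 9 libraries fall in 3 groups and the genes were ranked by r itself, so no p is given. The 5 genes differed less than PDGFB did: ARID3B, an AT-rich DNA-binding protein, averaged 6.42 CPM in SKP2-1, 16.3 CPM in SKP2-2 and 10.4 CPM in NC, with a log2 fold change between the siRNAs of 1.34. For GUCD1, SCARA3, UBL4A and UBOX5 that value was 0.42, 0.72, 0.53 and 0.78.

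**Figure D4:**
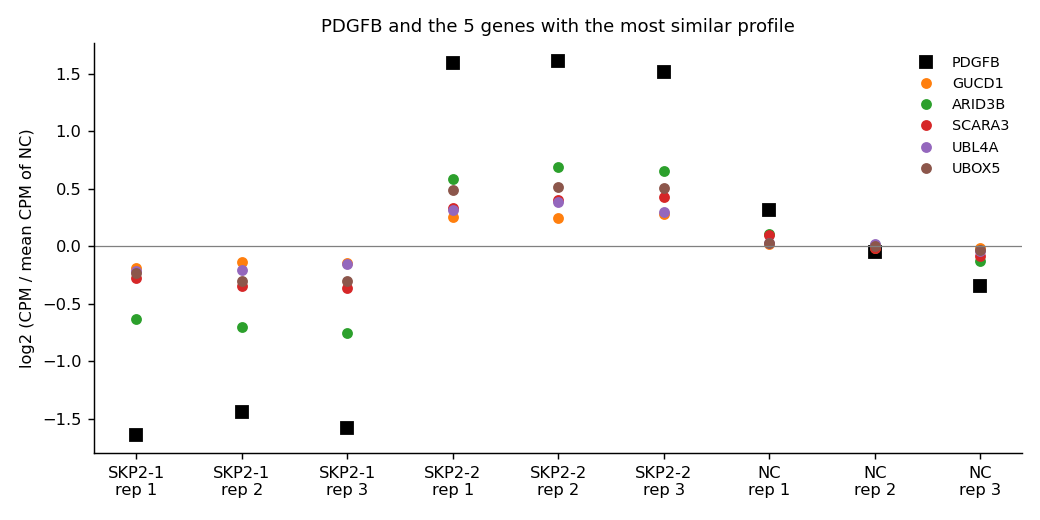
Log2 of the CPM of each library over the mean CPM of NC, for PDGFB (squares) and the 5 genes whose profile over the 9 libraries was most like it (circles). All 6 genes lie below 0 in the SKP2-1 libraries and above 0 in the SKP2-2 libraries, with PDGFB farthest from 0.

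The other genes of both pathways were followed in 6 lists of 101 genes, 97 of which were tested. In SKP2-1 against NC 40 rose and 18 fell, in SKP2-2 against NC 26 rose and 32 fell, and in SKP2-2 against SKP2-1 25 rose and 43 fell, by edgeR's quasi-likelihood test adjusted over all genes. The share past the threshold in either direction over all genes was 45.5%, 49.4% and 50.5%. By direction, 25.0% rose and 20.5% fell with SKP2-1, and 25.2% rose and 24.1% fell with SKP2-2. Between the siRNAs 25.2% rose and 25.3% fell. The median log2 fold change of the 97 genes was 0.09 with SKP2-1, -0.05 with SKP2-2 and -0.09 between the siRNAs, and over all genes 0.02, 0.03 and 0.03. The lists were chosen with earlier results of these data known, and no test was made of a list as a whole.

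**Figure D5:**
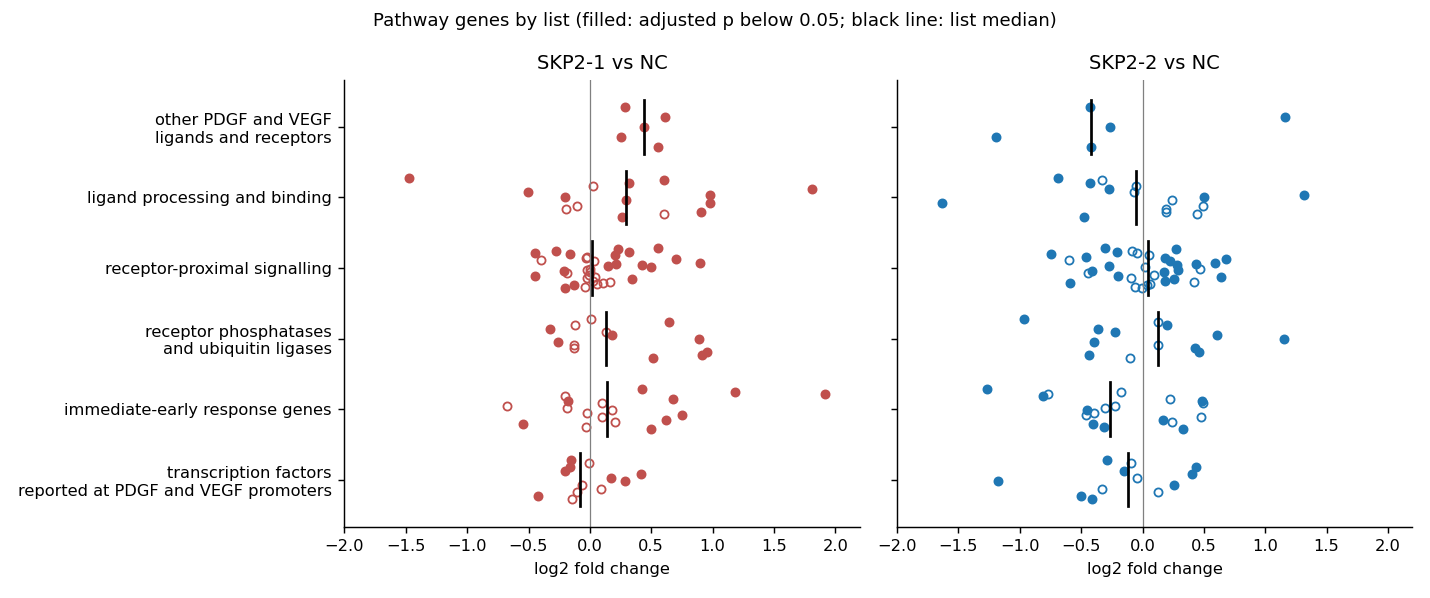
Log2 fold change against NC (horizontal axis) of each tested gene in the 6 pathway lists, for SKP2-1 and SKP2-2, with filled points for an edgeR adjusted p below 0.05 and a black line at the list's median. The 5 other ligands and receptors lie above 0 with SKP2-1, and 4 of the 5 below 0 with SKP2-2.

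Of the 7 other ligands and receptors, VEGFD and FLT4 were too low to test. The 5 that were tested all rose with SKP2-1, and with SKP2-2 1 rose and 4 fell. Of all genes tested, 25.0% rose and 20.5% fell with SKP2-1, and 25.2% rose and 24.1% fell with SKP2-2. VEGFA, the main angiogenic ligand, averaged 435 ± 11.2 CPM in SKP2-1, 265 ± 21.0 CPM in SKP2-2 and 356 ± 15.5 CPM in NC (SD, n = 3 each). It rose by 0.29 (SE 0.06) with SKP2-1 and fell by 0.43 (SE 0.06) with SKP2-2 on the log2 scale (edgeR adjusted p = 0.00106 and 4.11e-05). VEGFA thus lay highest in SKP2-1, as KDR did, and lowest in SKP2-2.

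The coreceptors of VEGF moved the same ways as VEGFA. NRP2, a coreceptor for VEGFC, averaged 47.2 ± 0.156 CPM in SKP2-1, 17.2 ± 0.901 CPM in SKP2-2 and 39.5 ± 1.14 CPM in NC. It rose by 0.26 with SKP2-1 and fell by 1.20 with SKP2-2 on the log2 scale (edgeR adjusted p = 0.00122 and 1.68e-09). NRP1 averaged 905, 556 and 668 CPM in SKP2-1, SKP2-2 and NC, and rose by 0.44 and fell by 0.26 (edgeR adjusted p = 4.24e-06 and 0.000329). PDGFRL, a PDGF receptor-like gene, rose by 0.56 with SKP2-1 and fell by 0.42 with SKP2-2 (edgeR adjusted p = 0.00258 and 0.0179); the fall did not pass without NC replicate 2 (adjusted p = 0.0867) or SKP2-2 replicate 3 (adjusted p = 0.0823). PGF, a ligand of FLT1, was the exception and rose with both siRNAs, to 6.75 CPM in SKP2-1 and 9.92 CPM in SKP2-2, against 4.46 CPM in NC. The rises were 1.53-fold and 2.24-fold (edgeR adjusted p = 0.0184 and 0.000349). The rise with SKP2-1 did not pass without SKP2-1 replicate 3 (edgeR adjusted p = 0.0691) or with a block for replicate number (0.058).

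Of 17 genes that process or bind the ligands, 15 were tested. With SKP2-1 8 rose and 3 fell, against 25.0% and 20.5% of all genes. With SKP2-2 2 rose (4 without NC replicate 1) and 5 fell, against 25.2% and 24.1% of all genes. PLAT, the tissue plasminogen activator that cuts PDGFC to its active form, averaged 1025 ± 22.6 CPM in SKP2-1, 241 ± 4.27 CPM in SKP2-2 and 292 ± 14.3 CPM in NC. It rose by 1.81 (SE 0.05) with SKP2-1 and fell by 0.28 (SE 0.05) with SKP2-2 on the log2 scale (edgeR adjusted p = 3.53e-11 and 0.000268). PLAU, the urokinase that cuts PDGFD, fell by 0.50 with SKP2-1 (edgeR adjusted p = 1.45e-06), and its value with SKP2-2 was -0.07 (adjusted p = 0.24). That value passed without NC replicate 1 (edgeR adjusted p = 0.0295) or SKP2-2 replicate 1 (0.0118). It also passed with a filter of 1 CPM in 3 libraries (0.0317). ST14, encoding matriptase, another protease that cuts PDGFD, averaged 4.87 CPM in SKP2-1, 6.14 CPM in SKP2-2 and 2.49 CPM in NC, and rose with both (0.98 and 1.31, edgeR adjusted p = 4.72e-05 and 2.43e-06).

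FURIN, a convertase that cuts PDGF and VEGFC precursors, averaged 30.8 ± 0.779 CPM in SKP2-1, 52.9 ± 9.96 CPM in SKP2-2 and 85.6 ± 21.9 CPM in NC. It fell by 1.48 with SKP2-1 (SE 0.21, edgeR adjusted p = 0.00128) and by 0.69 with SKP2-2 (adjusted p = 0.0311). The fall with SKP2-2 did not pass without NC replicate 2, any 1 of the SKP2-1 libraries, or SKP2-2 replicate 1 or 2. These fits gave log2 fold changes of -0.61 to -0.74 and edgeR adjusted p of 0.0521 to 0.0795. Nor did the fall pass with no filter on low counts (edgeR adjusted p = 0.0762) or with a block for replicate number (0.0813). CCBE1, which helps the protease ADAMTS3 to cut VEGFC and is named here after its values were seen, fell by 0.21 with SKP2-1 and rose by 0.50 with SKP2-2 (edgeR adjusted p = 0.00148 and 5.39e-07). ADAMTS14, another protease that can cut VEGFC, rose by 0.98 with SKP2-1 and fell by 1.63 with SKP2-2 (edgeR adjusted p = 0.00131 and 0.000213), at 1.66, 0.268 and 0.846 CPM in SKP2-1, SKP2-2 and NC. THBS1, a matrix protein that binds VEGF, averaged 2191, 1310 and 1826 CPM in these groups, and rose by 0.26 and fell by 0.48 (edgeR adjusted p = 0.000224 and 9.07e-07).

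All 34 genes of receptor-proximal signalling were tested, and 11 rose and 7 fell with SKP2-1 while 12 rose and 8 fell with SKP2-2. The shares of all genes that rose and fell were 25.0% and 20.5% with SKP2-1, and 25.2% and 24.1% with SKP2-2. GRB2, the adaptor that links receptors to RAS, averaged 182, 100 and 123 CPM in SKP2-1, SKP2-2 and NC, rose by 0.56 with SKP2-1 and fell by 0.30 with SKP2-2 (edgeR adjusted p = 3.59e-07 and 8.76e-05). PIK3R1, a regulatory subunit of PI3 kinase, averaged 40.3, 39.6 and 24.7 CPM and rose with both (0.71 and 0.68, edgeR adjusted p = 5.54e-07 and 6.53e-07). PLCG2, a phospholipase C, also rose with both (0.90 and 0.59, edgeR adjusted p = 7.41e-07 and 3.17e-05). PTPN11, the phosphatase SHP2 that relays receptor signals, fell by 0.74 with SKP2-2 (edgeR adjusted p = 2.71e-07) and by 0.16 with SKP2-1 (0.0339). The fall with SKP2-1 did not pass without NC replicate 2 or 3, any 1 of the SKP2-1 libraries, or SKP2-2 replicate 2. In these fits the edgeR adjusted p was up to 0.109. It did not pass with a block for replicate number either (0.0751).

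Of 13 phosphatases, ubiquitin ligases and feedback inhibitors that limit receptor signalling, 6 rose and 2 fell with SKP2-1, and 5 rose and 5 fell with SKP2-2. Among all genes 25.0% rose and 20.5% fell with SKP2-1, and 25.2% rose and 24.1% fell with SKP2-2. Without NC replicate 3, 4 instead of 2 fell with SKP2-1. CBL, a ubiquitin ligase that sends activated receptors to degradation, averaged 192, 97.4 and 191 CPM in SKP2-1, SKP2-2 and NC, and fell by 0.97 with SKP2-2 (edgeR adjusted p = 2.12e-09). Its value with SKP2-1 was 0.01 (adjusted p = 0.887). SPRY2, an inhibitor of receptor kinase signalling, averaged 158, 61.8 and 83.8 CPM, and rose by 0.92 and fell by 0.44 (edgeR adjusted p = 1.83e-09 and 1.51e-06). PTPRB, a phosphatase best known from endothelium, and NEDD4, a ubiquitin ligase, rose with both siRNAs, PTPRB by 0.89 and 1.15 (edgeR adjusted p = 4.38e-05 and 3.33e-06) and NEDD4 by 0.96 and 0.46 (adjusted p = 1.2e-08 and 1e-05).

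Among 18 immediate-early genes, which growth factors induce within a short time, 7 rose and 2 fell with SKP2-1, and 3 rose and 5 fell with SKP2-2. For all genes the shares that rose and fell were 25.0% and 20.5% with SKP2-1, and 25.2% and 24.1% with SKP2-2. EGR1, a zinc finger transcription factor, averaged 14.6 ± 1.03 CPM in SKP2-1, 4.49 ± 0.778 CPM in SKP2-2 and 10.9 ± 0.949 CPM in NC. It rose by 0.43 with SKP2-1 and fell by 1.27 with SKP2-2 on the log2 scale (edgeR adjusted p = 0.00642 and 1.25e-06). EGR3 rose by 1.91 with SKP2-1 (edgeR adjusted p = 3e-05), and its value with SKP2-2 was -0.77 (adjusted p = 0.0711). That value passed without NC replicate 2 (edgeR adjusted p = 0.0471) or SKP2-2 replicate 3 (0.0247), and with no filter on low counts (0.0398). FOSL1, an AP-1 subunit, went the other way, averaging 170, 271 and 193 CPM in SKP2-1, SKP2-2 and NC, and fell by 0.18 and rose by 0.49 (edgeR adjusted p = 0.003 and 6.06e-07). The survival gene MCL1 and the zinc finger gene KLF6 rose with both, MCL1 by 0.62 and 0.17 and KLF6 by 0.50 and 0.33 (edgeR adjusted p at most 0.00878). With SKP2-2, 6 instead of 3 rose without NC replicate 1, and 8 instead of 5 fell without SKP2-2 replicate 3.

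Of 12 transcription factors reported at PDGF and VEGF promoters, 3 rose and 4 fell with SKP2-1, and 3 rose and 5 fell with SKP2-2. The 4 became 2 without NC replicate 2, SKP2-1 replicate 1 or SKP2-1 replicate 3. Leaving out 1 library at a time put this count at 2 to 6. Over all genes 25.0% rose and 20.5% fell with SKP2-1, and 25.2% rose and 24.1% fell with SKP2-2. EPAS1, which encodes the hypoxia-inducible factor HIF-2α, averaged 163 ± 2.03 CPM in SKP2-1, 59.1 ± 3.80 CPM in SKP2-2 and 134 ± 5.53 CPM in NC. It rose by 0.29 with SKP2-1 and fell by 1.18 with SKP2-2 on the log2 scale (edgeR adjusted p = 0.000437 and 1.44e-09). SMAD3 fell with both (0.42 and 0.50, edgeR adjusted p = 1.5e-05 and 2.62e-06) and KLF5 rose with both (0.41 each, adjusted p = 4.2e-06 and 4.24e-06). ETS1, a factor of endothelial and mesenchymal cells, rose by 0.44 with SKP2-2 and fell by 0.16 with SKP2-1 (edgeR adjusted p = 1.39e-05 and 0.022). The fall did not pass without NC replicate 2 or 3 or any 1 of the SKP2-1 libraries, with edgeR adjusted p of up to 0.0868. It did not pass with a block for replicate number either (0.0586).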

How the data were processed

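The authors deposited whole-number, unnormalized counts of reads for each Ensembl gene, 1 table per library. Tools named per the submitters' processing notes are HTSeq 0.6.1 and DESeq2 1.16.1, with STAR, Trim Galore 0.4.1 and FastQC 0.11.2; settings, genome build, annotation and strand are not given in the sources used here. Lines for reads outside genes (5.34 to 5.92% of all counts) or in several genes (3.87 to 3.97%) were left out of totals and tests. Symbols came from a supplied name table (57754) and GENCODE 29 (521), and coordinates from GENCODE 29 on GRCh38 by gene ID.

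Tests used edgeR 4.0.16 in R 4.3.3: filterByExpr (minimum count 10, minimum total 15; 16575 genes kept), TMM scaling, a robust quasi-likelihood fit of group over all 9 libraries, two-sided F tests and Benjamini-Hochberg adjustment over all genes, threshold 0.05. The script was tested on simulated data. The biological coefficient of variation was 0.089 and the median SE of a log2 fold change 0.09. CPM per kilobase uses the union of GENCODE 29 exons. The genes, lists and tests were chosen with earlier results of these data known. Named were all 10 genes, SKP2 and SLC39A7, from each list the 3 most abundant genes and the 3 called genes with the largest change per siRNA, and the 5 genes most like PDGFB; not each of these is discussed. As alternatives, the scaling was RLE or by library size, the filter was dropped or set to 1 CPM in 3 libraries, DESeq2 1.42.0 was run, a replicate block was added, each library was left out, and NC replicate 1 was left out together with SKP2-2 replicate 3.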

Additional observations from a re-analysis of the deposited data

Results flagged for a closer look

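In 17 of the 97 pathway genes tested the change against NC passed the threshold with each siRNA and had opposite signs; over all 16575 genes, 1100 (6.64%) did. The lists were chosen with earlier results of these data known, and no test of them against other genes was made. The difference between the siRNAs, SKP2-2 against SKP2-1, also passed in the fit described and in all 16 alternatives, but opposite changes past the threshold already imply a difference, so this adds no support. Both changes are set against the same NC libraries. The log2 fold change of SKP2-2 over SKP2-1 was -0.72 for VEGFA, -0.70 for NRP1, -1.45 for NRP2 and -0.98 for PDGFRL. Among the genes that process or bind ligands it was -2.09 for PLAT, -2.61 for ADAMTS14, -0.75 for PCSK6, -0.74 for THBS1 and 0.71 for CCBE1. In signalling and feedback it was -0.86 for GRB2, -0.53 for SOS2, -0.42 for YES1 and -1.35 for SPRY2. Among transcription factor genes it was -1.69 for EGR1, 0.67 for FOSL1, 0.60 for ETS1 and -1.46 for EPAS1. The edgeR adjusted p of these differences ranged from 6.73e-12 for PLAT to 3.08e-05 for PDGFRL. Against NC, the SKP2-1 change of YES1 did not pass in 8 of the alternatives, that of ETS1 in 6, and the SKP2-2 change of PDGFRL in 2.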

How the results depend on the processing

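Over the 16 alternatives, the 8 genes gave 384 fold changes. Of these 371 moved by less than the spread between replicates, 13 moved by more and 0 of those past the threshold changed sign. Of the 13, 6 were for PDGFB, in 2 of its comparisons. Without both NC replicate 1 and SKP2-2 replicate 3, PDGFB was at -1.37 for SKP2-1 against NC and 1.79 for SKP2-2 against NC. Leaving out 1 library at a time put these at -1.69 to -1.37 and 1.44 to 1.75, and SKP2-2 against SKP2-1 at 3.08 to 3.17. Calls over all genes ranged from 6429 to 8755 for SKP2-1 against NC (7548 in the fit described), 7190 to 9152 for SKP2-2 against NC (8181) and 7160 to 9414 between the siRNAs (8365). Same-numbered libraries had correlations of their deviations from the group mean of -0.712 to 0.099. The correlation was 0.716 for NC replicate 1 with SKP2-2 replicate 3 and 0.675 for NC replicate 3 with SKP2-2 replicate 1. Deviations within a group depend on each other, so these values cannot show whether same-numbered libraries were handled together. With the replicate block, 6818 genes were called for SKP2-1 against NC, 7501 for SKP2-2 against NC and 7500 between the siRNAs, and in the pathway lists 36 rose and 14 fell, 25 rose and 30 fell, and 20 rose and 38 fell. Over the 64 named genes and 3 comparisons, 28 results changed their call in at least 1 alternative. Depth limits PDGFRA and FLT1.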
